A study of Mus musculus with 15 samples.

Results

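The 10 genes described here, H19, Igf2, Igf2r, Dlk1, Meg3, Cdkn1c, Grb10, Plagl1, Peg3 and Mest, belong to the imprinted genes, which are expressed mainly from the copy inherited from 1 parent. They were taken by name from a deposited table of RNA-seq counts of 54232 genes, and all 10 were found in it and passed the filter on low counts, as did 22151 genes in all. The table covers the secondary palate of wild-type mice on 4 days of gestation, E13.5, E14.5, E15.5 and E16.5, and on the day of birth, P0. Each of the 5 stages had 3 libraries, each library held the pooled palates of 3 embryos, and strain, sex and litter are not given in the labels. By sex-linked transcripts, the 3 pools of E16.5 had Y-linked Ddx3y at 0.0277 to 0.0647 CPM (counts of a gene per 1000000 counts of its library) and Xist at 269 to 674 CPM, whereas every other stage held at least 1 pool with Ddx3y above 16 CPM. Ddx3y was also low in E13.5 replicate 1 (0.201 CPM), E15.5 replicate 1 (0.152 CPM) and P0 replicate 2 (0.152 CPM). At E14.5 every pool had it, at 25.4 to 53.1 CPM. Stage and sex of the pools therefore cannot be fully told apart in comparisons with E16.5 or E14.5, and sex was not in the fit. The labels name no agent and no altered allele. The genes were selected on their counts across the 5 stages, with results of these same libraries known, so their levels and changes are given as a description, and no p-value is given for any of them. How many of them pass the threshold of the fit over all genes is printed only beside the share of all genes that do, and supports nothing. The measured quantity is total RNA of each gene. It says nothing about which parental copy was transcribed.

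The secondary palate forms from paired shelves of neural crest mesenchyme covered by epithelium, which rise above the tongue, meet and fuse before birth and then carry bone and muscle. Imprinted genes are known for their part in prenatal growth: as a rule, genes active on the paternal copy promote growth and genes active on the maternal copy restrain it. The insulin-like growth factor IGF2 is the growth-promoting ligand at the centre of this group, and IGF2R is the receptor that carries it to the lysosome. H19 is a long non-coding RNA that shares enhancers with Igf2 and is transcribed from the maternal copy. Many of these genes are known to be high in the fetus and to fall after birth.

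Positions are given on GRCm38. Chromosome 7 carries H19 (chr7:142575529-142578143, minus strand), Igf2 (chr7:142650766-142666816, minus strand) and Cdkn1c (chr7:143458339-143461050, minus strand) in 1 imprinted region, with 72.6 kb between H19 and Igf2 and 792 kb between Igf2 and Cdkn1c. Peg3 lies elsewhere on the same chromosome (chr7:6703892-6730431, minus strand). Dlk1 (chr12:109452823-109463336, plus strand) and Meg3 (chr12:109541001-109571726, plus strand) are 77.7 kb apart on chromosome 12. The others are single members of their regions: Igf2r (chr17:12682406-12769664, minus strand), Grb10 (chr11:11930508-12038683, minus strand), Plagl1 (chr10:13060504-13131694, plus strand) and Mest (chr6:30723547-30748465, plus strand).

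H19 is the host of a microRNA, and its 2 mature arms are printed because they are the known small RNA product of the most abundant member. They are credited to RefSeq on GRCm38.p6 and lie on the minus strand at chr7:142577112-142577133 and chr7:142577078-142577099, inside the H19 transcript. Capitals mark the seed, bases 2 to 8.
mmu-miR-675-5p: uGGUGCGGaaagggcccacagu
mmu-miR-675-3p: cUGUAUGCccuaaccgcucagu
The 2 arms have different seeds. The counted annotation lists the microRNA as a gene of its own, all 84 bases of which lie in H19 on the same strand. A fragment lying only there was on both genes and was assigned to neither. The listed microRNA gene accordingly had 0 counts in all 15 libraries, and the counts of H19 say nothing about the mature arms.

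Among RefSeq promoters on GRCm38.p6, 8 of the 10 genes had an entry, with 15 windows. The 250 bases before the start of Dlk1 (chr12:109452573-109452822, plus strand) and before a start of Meg3 (chr12:109540746-109540995, plus strand) are shown because these 2 genes form a pair whose levels are compared below.
Dlk1: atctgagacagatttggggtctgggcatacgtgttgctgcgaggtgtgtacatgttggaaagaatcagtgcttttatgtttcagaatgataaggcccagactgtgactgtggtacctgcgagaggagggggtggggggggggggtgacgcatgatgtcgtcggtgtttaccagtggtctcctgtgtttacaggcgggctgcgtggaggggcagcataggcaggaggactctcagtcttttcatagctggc
Meg3: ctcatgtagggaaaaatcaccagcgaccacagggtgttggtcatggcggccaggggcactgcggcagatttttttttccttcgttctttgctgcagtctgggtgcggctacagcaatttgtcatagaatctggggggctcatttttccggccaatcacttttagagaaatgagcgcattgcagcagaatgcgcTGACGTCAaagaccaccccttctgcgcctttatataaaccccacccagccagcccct
Capitals mark TGACGTCA, the letters of the cAMP response element, which read the same on both strands and stand 57 bases before the Meg3 start. This motif was chosen after its letters were seen in the window. It was present in 1.55% of 32851 windows of 250 bases and in windows of 2 of the 8 genes, Meg3 and Peg3. The letters GGGGCCCC, searched as the core that PLAGL1 is known to bind, were in 0.889% of windows and among the 8 genes only before Peg3. CAGCTG, an E-box of the kind bound by muscle regulators, was in 13% of windows and among the 8 genes only before Mest. Both read the same on both strands and neither overlaps the other. The window of Dlk1 held none of the 3 motifs.

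Library totals ran from 21.5 M to 69.0 M counts with a median of 61.0 M, so 3 counts corresponded to at most 0.140 CPM. Chi-square tests between libraries of 1 stage gave 29.5 to 225 per degree of freedom, so libraries differed far more than counting allows, and no library repeated another. All markers of the palate mesenchyme were detected in every library. Their 8 genes summed to 573 to 932 CPM at E13.5 and 238 to 346 CPM at P0. In the same interval 10 skeletal muscle markers went from 237 to 435 CPM to between 6033 and 37068 CPM, and 6 osteoblast markers from 1259 to 1920.1 CPM to between 18023 and 34730.0 CPM. In bulk tissue, fewer cells of a type and less RNA per cell cannot be told apart. At E14.5, 7 choroid plexus markers summed to 1487 and 873 CPM in replicates 1 and 3 and to 81.8 CPM in replicate 2.

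The levels below are CPM on library totals after TMM (trimmed mean of M values) adjustment. Libraries of each stage are given in the order of replicates 1, 2 and 3, and that order was not taken as a pairing. Fold changes are on the log2 scale with the standard error (SE) of the fit over all 15 libraries. A gene is called where edgeR's quasi-likelihood test gives it a p-value under 0.05 after Benjamini-Hochberg adjustment over the 22151 genes tested.

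H19 was the most abundant of the 10 genes at every stage, also per kilobase of counted length. Its CPM were 4132, 2863 and 5319 at E13.5, 2122, 3951 and 5984 at E14.5, and 8311, 6504 and 6808 at E15.5. They were 22905, 11618 and 10734 at E16.5 and 19763, 20563 and 9369 at P0. The libraries of E13.5 and E14.5 overlap, all libraries of E15.5 lie above them, and all libraries of E16.5 and P0 lie above those of E15.5. H19 held 0.200% to 0.617% of all counts of a library at the first 2 stages and 1.00% to 2.03% at the last 2. By counts it ranked between the 1st and the 12th gene of a library, and it was the 1st in E16.5 replicate 1 and P0 replicate 2. The mean went from 4105 ± 1228 CPM at E13.5 to 16565 ± 6245 CPM at P0 (SD, n = 3 each), a log2 fold change of 2.01 (SE 0.43), or 4.04-fold. Between neighbouring stages the log2 fold changes were -0.03 (SE 0.41), 0.84 (SE 0.42), 1.07 (SE 0.42) and 0.14 (SE 0.41). The value for E16.5 against E15.5 was 0.62 without E16.5 replicate 1, the library with the highest H19 level.

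**Figure D1:**
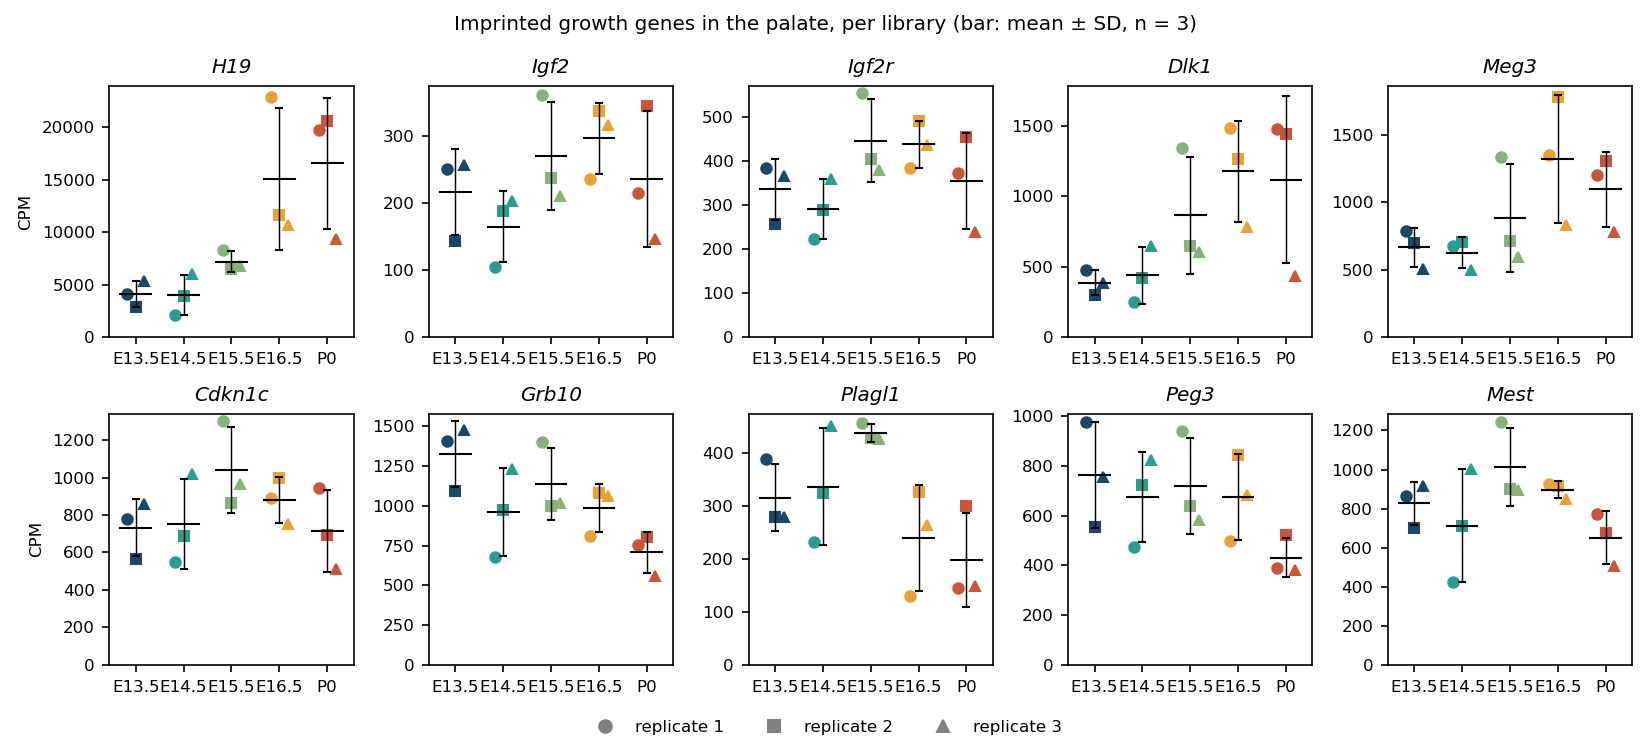
CPM (vertical axis, from 0) of the 10 genes in each library at the 5 stages. Circles, squares and triangles are replicates 1, 2 and 3, the horizontal bar is the stage mean and the whisker the SD (n = 3); H19 at P0 lies between 9369 and 20563 CPM, above all E13.5 libraries, whereas Igf2, Igf2r, Cdkn1c and Mest overlap between these stages.

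Igf2, the neighbour of H19 and the growth factor of the group, was higher at E15.5 than at E14.5, as H19 was. Unlike those of H19, its P0 libraries overlapped those of E13.5. Its CPM were 252, 143 and 257 at E13.5, 105, 188 and 203 at E14.5, and 362, 237 and 211 at E15.5. They were 237, 338 and 316 at E16.5 and 215, 346 and 147 at P0. All E15.5 libraries lie above all E14.5 libraries, and the other neighbouring stages overlap. The log2 fold change of P0 against E13.5 was 0.12 (SE 0.35), and it lay between -0.24 and 0.40 when single libraries were left out, so its sign rests on single libraries.

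Only a minority of the exon bases of Igf2 belonged to Igf2 alone in the count. In the counted annotation another gene, Gm49394, runs through Igf2 on the same strand (chr7:142650769-142669942) and covers 3596 of its 5723 counted bases, or 62.8%. It also covers 546 of the 678 coding bases of Igf2 (80.5%). A fragment wholly on bases of both genes was assigned to neither under the recorded settings. A counted Igf2 fragment therefore had to reach the other 2127 bases, of which the longest stretch is 1126 bases. Read pairs with 1 read on shared and 1 on unshared bases may have been counted, and their number is not known. Gm49394 itself had 578 counts in all 15 libraries together. The level of Igf2 is therefore understated by an unknown amount. Comparisons of Igf2 between stages use fragments that reach the same unshared bases at each stage. Those bases include RefSeq starts of Igf2, at chr7:142658804 in the longest stretch and at chr7:142661271 in another. Whether the start in use changed between stages was not tested, so the changes given for Igf2 hold for such fragments only. The same limit was small for H19 (3.42% of bases shared) and Meg3 (1.50%), and the other 7 genes shared no base with a gene on their strand.

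**Figure D2:**
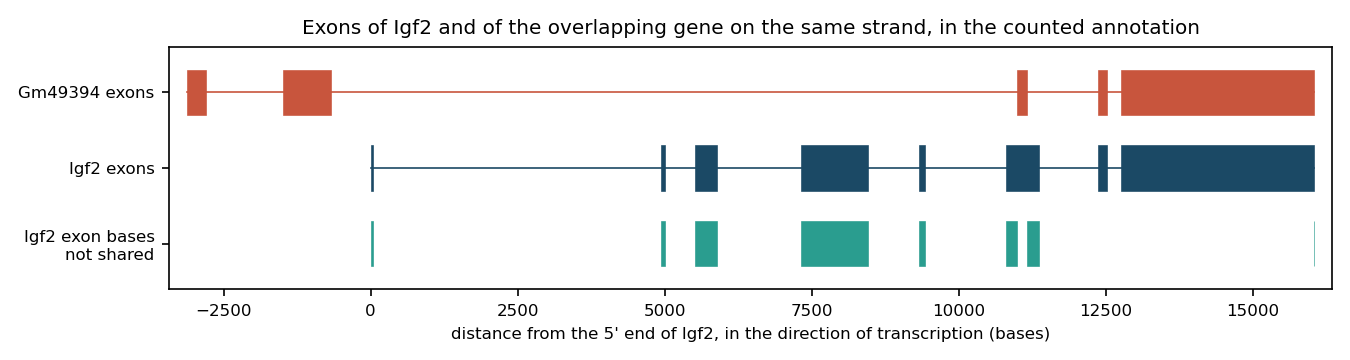
Exons of Igf2, exons of Gm49394 on the same strand, and the exon bases of Igf2 that no other gene on that strand shares, by distance in bases from the 5' end of Igf2. Boxes are merged exons and lines span each gene; 2127 of 5723 Igf2 bases remain in the bottom row, and almost none are in its last exons.

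The ratio of H19 to Igf2 within a library needs no scaling between libraries. In counts per kilobase it was 38.2, 46.5 and 48.2 at E13.5, 47.0, 48.9 and 68.6 at E14.5, and 53.4, 63.8 and 75.0 at E15.5. It was 225, 80.0 and 78.9 at E16.5 and 214, 138 and 149 at P0. The P0 ratios are all above those of the first 3 stages, and E16.5 replicate 1 stands apart from the other libraries of its stage. On the log2 scale the stage mean was 5.46 ± 0.18 at E13.5 and 7.35 ± 0.34 at P0 (SD, n = 3), a difference of 1.89 that stayed between 1.70 and 2.02 when any 1 library of these stages was left out. The height of these ratios depends on the length used for Igf2, while that length does not alter their differences between stages. Those differences still rest on fragments that reach the unshared bases of Igf2.

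Igf2r, the receptor that removes IGF2 and is active on the maternal copy, varied with Igf2 and little in all. Its CPM were 383, 257 and 367 at E13.5, 223, 289 and 359.8 at E14.5, 554, 405 and 379 at E15.5, 385, 492 and 437 at E16.5, and 374, 454 and 239 at P0. All E15.5 libraries lie above all E14.5 libraries, and the 5 stages otherwise overlap their neighbours. P0 against E13.5 gave a log2 fold change of 0.08 (SE 0.25), between -0.11 and 0.33 with single libraries left out. The geometric mean ratio of Igf2 to Igf2r per kilobase was, for the 5 stages in order of age, 1.05, 0.919, 0.985, 1.11 and 1.07. The ratio near 1 holds only for the full counted length. Per kilobase of the unshared bases Igf2 was 67.4 to 121 CPM at E13.5 and 69.0 to 163 CPM at P0, above the 27.2 to 40.6 and 25.3 to 48.1 CPM per kilobase of Igf2r. These Igf2 values are too high if read pairs reaching into shared bases were counted.

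Grb10 encodes an adaptor that dampens signalling of the insulin and IGF1 receptors. It is maternally expressed in most tissues and paternally in neurons. Its CPM were 1404, 1089.7 and 1477 at E13.5, 679.8, 971 and 1233 at E14.5, 1399.6, 996 and 1016 at E15.5, 809, 1082 and 1061 at E16.5, and 756, 802 and 561 at P0. The 3 P0 libraries lie below all libraries of E13.5, E15.5 and E16.5. The log2 fold change of P0 against E13.5 was -0.91 (SE 0.23), and it lay between -1.04 and -0.74 with single libraries left out.

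Cdkn1c encodes p57, an inhibitor of cyclin-dependent kinases that holds cells back from division, and lies in the same chromosomal region as H19. Its CPM were 776, 564 and 857 at E13.5, 547, 689 and 1019.9 at E14.5, 1300.2, 863 and 963 at E15.5, 893, 999 and 754 at E16.5, and 944, 691 and 509.9 at P0. All neighbouring stages overlap, and so do E13.5 and P0. Its log2 fold change of P0 against E13.5, -0.04 (SE 0.27), and that of E14.5 against E13.5, 0.04 (SE 0.27), changed sign with the scaling.

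Dlk1, a membrane protein related to the Notch ligands that restrains differentiation of fat and muscle precursors, was higher late in the series. Its CPM were 478, 300.4 and 385 at E13.5, 247, 422 and 649 at E14.5, and 1346, 647 and 605 at E15.5. They were 1487, 1267 and 783 at E16.5 and 1481, 1440.3 and 437 at P0. P0 replicate 3 lies among the E13.5 libraries, and the other 2 P0 libraries lie above all of them. The log2 fold change of P0 against E13.5 was 1.53 (SE 0.49). It was 1.32 without P0 replicate 1 and 1.94 without P0 replicate 3, the lowest and the highest value with single libraries left out.

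Meg3, a non-coding RNA active on the maternal copy of the region in which Dlk1 is active on the paternal copy, had CPM of 791, 702 and 504 at E13.5, 674, 709 and 498 at E14.5, and 1339, 715 and 595 at E15.5. They were 1356, 1782 and 834 at E16.5 and 1200.1, 1310.0 and 782 at P0. All E16.5 libraries lie above all E13.5 and E14.5 libraries, and 1 P0 library falls just under the highest E13.5 library. The log2 fold change of P0 against E13.5 was 0.72 (SE 0.34), between 0.55 and 0.94 with single libraries left out. The geometric mean ratio of Dlk1 to Meg3 per kilobase was, in the same order of stages, 1.86, 2.10, 3.12, 2.88 and 2.92, and single libraries of E14.5 ranged from 1.17 to 4.17. The log2 difference of P0 from E13.5 was 0.65 and lay between 0.43 and 1.00 with single libraries left out.

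Plagl1 and Peg3 encode zinc finger proteins active on the paternal copy, and PLAGL1 is known to regulate other imprinted genes, H19 and Igf2 among them. Plagl1 had CPM of 389, 279 and 280.4 at E13.5, 233, 325 and 452 at E14.5, and 457, 429 and 428 at E15.5. The values were 130.1, 327 and 264 at E16.5 and 146, 301 and 149 at P0. Every library of E16.5 and P0 lies below every E15.5 library, and the log2 fold change of E16.5 against E15.5 was -0.87 (SE 0.35). In that same interval H19 was higher in every library. P0 against E13.5 gave -0.67 (SE 0.35) for Plagl1.

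Peg3 had CPM of 978, 555 and 755 at E13.5, 474, 723 and 825 at E14.5, 940.4, 638 and 581 at E15.5, 499, 842 and 681 at E16.5, and 390.3, 521 and 381 at P0. The P0 libraries lie below all E13.5 and E15.5 libraries. The log2 fold change of P0 against E13.5 was -0.82 (SE 0.28), between -1.02 and -0.61 with single libraries left out.

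Mest, a protein of the alpha/beta hydrolase fold active on the paternal copy and often used as a mark of growing mesenchyme and fat, had CPM of 864, 702 and 914 at E13.5, 422, 711 and 1001 at E14.5, 1244, 901 and 897 at E15.5, 927, 914 and 847 at E16.5, and 773, 678 and 506 at P0. The P0 libraries lie below all E16.5 libraries and overlap those of E13.5. The log2 fold change of P0 against E13.5 was -0.34 (SE 0.26).

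Over the whole interval, P0 against E13.5, 4 of the 10 genes passed the threshold, H19 and Dlk1 on the higher side and Grb10 and Peg3 on the lower, and 56.6% of all tested genes did, 29.8% higher and 26.8% lower. The 10 genes were selected on these same counts, so nothing is read from that count. The libraries of the 2 stages did not overlap for 3 of the 10 genes (H19, Grb10 and Peg3) against 59.1% of all genes. Higher without overlap was H19, 1 of the 10, against 30.2% of all genes. Lower without overlap were Grb10 and Peg3, 2 of the 10, against 28.9% of all genes. The median log2 fold change was 0.02 over the 10 genes and 0.03 over all tested genes. The count was 4 with DESeq2, which called 13204 of 22151 genes. It was 2 to 4 with single libraries left out, 2 being the count without P0 replicate 1, where 11531 of 23004 genes were called.

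Between neighbouring stages 0 of the 10 genes passed in edgeR. For E14.5 against E13.5, 0.00903% of all genes were called, and 0 of the 10 passed at an unadjusted p under 0.05. Their libraries did not separate for any of the 10, against 29.2% of all genes. For E15.5 against E14.5, 26.1% of all genes were called, and 1 of the 10 passed unadjusted. In that comparison the log2 fold change was above 0 for all 10 genes, with a median of 0.50 against 0.03 over all genes, although Peg3 was below 0 without E15.5 replicate 1 (-0.15) and without E14.5 replicate 1 (-0.11). The libraries did not overlap for H19, Igf2 and Igf2r, 3 of 10 against 51.3% of all genes. Higher without overlap were the same 3 of 10, against 24.0% of all genes. For E16.5 against E15.5, 1.41% of all genes were called, and 2 of the 10 passed unadjusted. The libraries did not overlap for H19 and Plagl1, 2 of 10, against 31.2% of all genes. For P0 against E16.5, 0.352% of all genes were called, and 1 of the 10 passed unadjusted. Here 9 of the 10 values were below 0, with a median of -0.30 against 0.00 over all genes. With single libraries left out, the sign changed for H19 (-0.07 to 0.57), Dlk1 (-0.32 to 0.305) and Plagl1 (-0.71 to 0.01). Grb10 and Mest, 2 of 10, had libraries without overlap against 11.6% of all genes. Lower without overlap were the same 2 of 10, against 5.39% of all genes. In DESeq2 the count was 0 as well in each of these 4 comparisons, where it called 1000, 7208, 2094 and 663 of 22151 genes. The share of all genes at an unadjusted p under 0.05 was not computed, so nothing is read from unadjusted counts here or below.

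The order of levels per kilobase was led at every stage by H19, followed by Cdkn1c. At E13.5 H19 had 1669 ± 499 and Cdkn1c 359 ± 74.1 CPM per kilobase (SD, n = 3), followed by Mest with 209.5 ± 28.1 and Grb10 with 146 ± 22.6, and no 2 neighbours among these overlapped. The remaining 6 genes lay between 35.6 and 68.5 CPM per kilobase, and all neighbours in that range overlapped. Igf2 stands there by its full counted length, and its 67.4 to 121 CPM per kilobase of unshared bases would place it with or above Dlk1, which had 53.1 to 84.5. That place is too high if read pairs reaching into shared bases were counted. At P0 H19 had 6734 ± 2539, Cdkn1c 351 ± 107, Dlk1 198 ± 104 and Mest 165 ± 34.3 CPM per kilobase. Cdkn1c, Dlk1 and Mest overlapped their neighbours in the order there, so the place of Dlk1 above Mest holds for the means only. Plagl1, with 25.4 ± 11.3 CPM per kilobase, was the lowest, and it overlapped Peg3.

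Within 4 of the 5 stages, most of the 10 genes were highest or lowest in the same library. E13.5 replicate 2 and E14.5 replicate 1 had the lowest value of their stage for 9 of the 10 genes, all but Meg3, and P0 replicate 3 for 9, all but Plagl1. E15.5 replicate 1 was the highest of its stage for all 10 genes and E14.5 replicate 3 for 9. At E16.5 this was not so: replicate 1 was the lowest for 5 genes and the highest for 3, and replicate 3 was the lowest for the other 5. Meg3 went the other way at the early stages. It was lowest in E13.5 replicate 3 and E14.5 replicate 3, the libraries with the lowest sum of 7 neuronal markers of their stage (1060.3 against 1877 and 3086 CPM, and 2644 against 5675 and 4061 CPM in the others). The match was partial. At E13.5, E14.5 and P0 the highest Meg3 level was not in the library with the highest neuronal sum. At E16.5 the lowest neuronal sum was in replicate 1 (1176 CPM) and the lowest Meg3 level in replicate 3. At E15.5 both had the same order. The stage mean of Meg3 was lowest at E14.5 (627 CPM), although the neuronal sums there exceeded those of E15.5. Meg3 is known to be abundant in neurons. Whether the neuronal share takes part in the level of Meg3 was not tested.

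**Figure D3:**
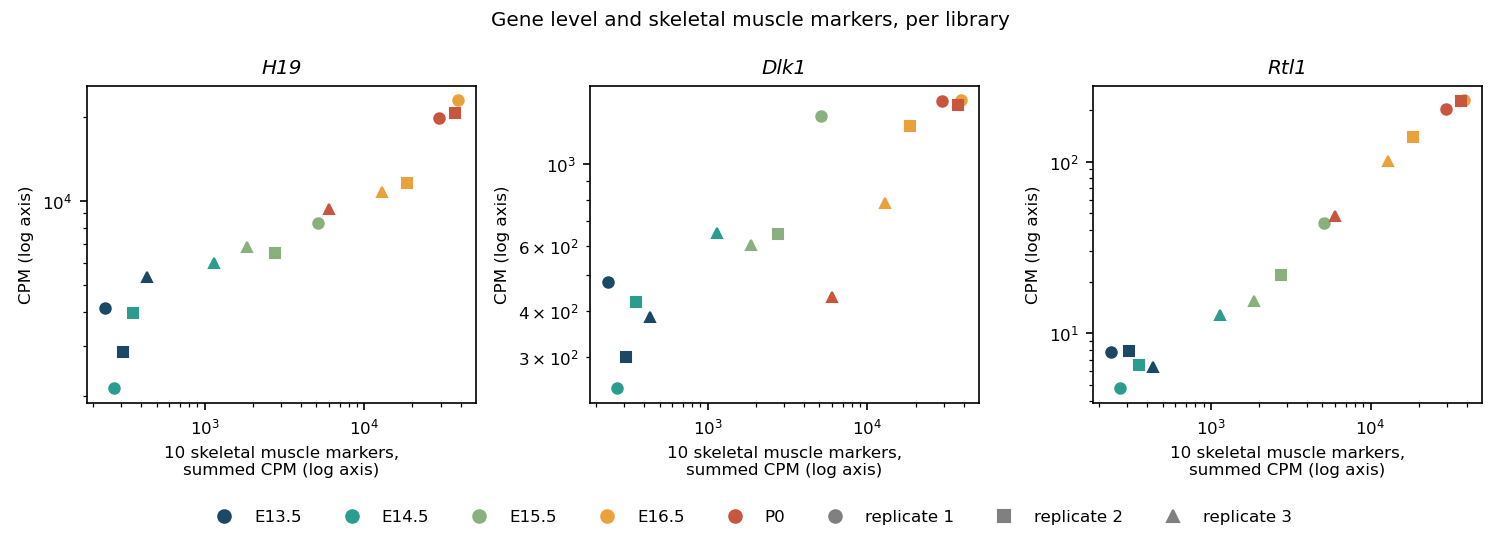
H19, Dlk1 and Rtl1 (vertical, CPM on a log axis) against the summed CPM of 10 skeletal muscle markers (horizontal, log axis), 1 point per library; colours are stages and shapes replicates. P0 replicate 3, with 6033 CPM of muscle markers against 29500.0 and 37068 in the other P0 libraries, is also the lowest P0 library in all 3 panels.

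H19 and Dlk1 are known to be high in embryonic skeletal muscle, and the muscle markers were higher at the late stages too. At E16.5 the 10 markers, Myod1, Myog and Myh3 among them, summed to 38687, 18388 and 12873 CPM in replicates 1, 2 and 3, the same order as H19 in those libraries. At P0 they summed to 29500.0, 37068 and 6033 CPM, again in the order of H19. In every stage the library with the highest muscle sum was also the library with the highest H19 level, but the order of the other libraries did not always match. At E13.5 the sums were 237, 308 and 435 CPM, with the lowest H19 level in replicate 2 and the highest Dlk1 level in replicate 1. At E15.5 they were 5120.2, 2758 and 1852 CPM, with the lowest H19 level in replicate 2. No marker of the list was at 0 in any library. The part of muscle in the levels of H19 and Dlk1 was not tested.

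The likeness of profiles was measured as the root mean square difference of log2 CPM over the 15 libraries, each gene centred on its mean. Of 11855 genes with a mean of at least 10 CPM, the 5 most like H19 were Eif4ebp1 (0.19), an inhibitor of translation initiation under mTOR control, Stat5a (0.22), a transcription factor of cytokine and growth hormone signalling, Sspn (0.23), a member of the dystrophin complex of muscle, Rras (0.24), a small GTPase, and Gsn (0.25), which severs actin filaments. The same 5 genes came out under the other scalings and the other prior count tried. Among the 10 genes Dlk1 was nearest to H19 at 0.43, rank 174, and Plagl1 was the farthest at 1.34, beyond the median of all genes, 1.11. Igf2 stood at 0.80, rank 2140 of 11855. The closest pairs within the group were Cdkn1c with Mest and Igf2 with Igf2r, both at 0.17, and Grb10 with Peg3 at 0.18. Profiles of low spread lie close to each other by this measure, and H19 had the widest range of the 10 genes, 3.43 on the log2 scale, against 1.31 for Igf2r.

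Other imprinted genes, which played no part in choosing the 10, are given with their tests. Their list, like those of IGF partners and kinase inhibitors below, was drawn up with earlier results of these data known. Its counts and p-values are therefore descriptive too. A list of 52 was used, of which 51 were in the table and 49 were tested. Some of them are known to be imprinted only in placenta or brain. For P0 against E13.5, 16 of the 49 rose and 15 fell in edgeR's test with Benjamini-Hochberg adjustment, 63.3% against 56.6% of all genes. DESeq2 called 34. Of all tested genes 29.8% rose and 26.8% fell past the same threshold. Of the 23 tested genes known as maternally expressed 10 rose and 6 fell, and of the 24 known as paternally expressed 4 rose and 9 fell. The rest of the 49 were in neither class. The difference between these classes was not tested. The 22 tested neighbours in the chromosomal regions of the 10 genes held 11 that rose and 3 that fell, while at other loci 5 rose and 12 fell of 27.

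**Figure D4:**
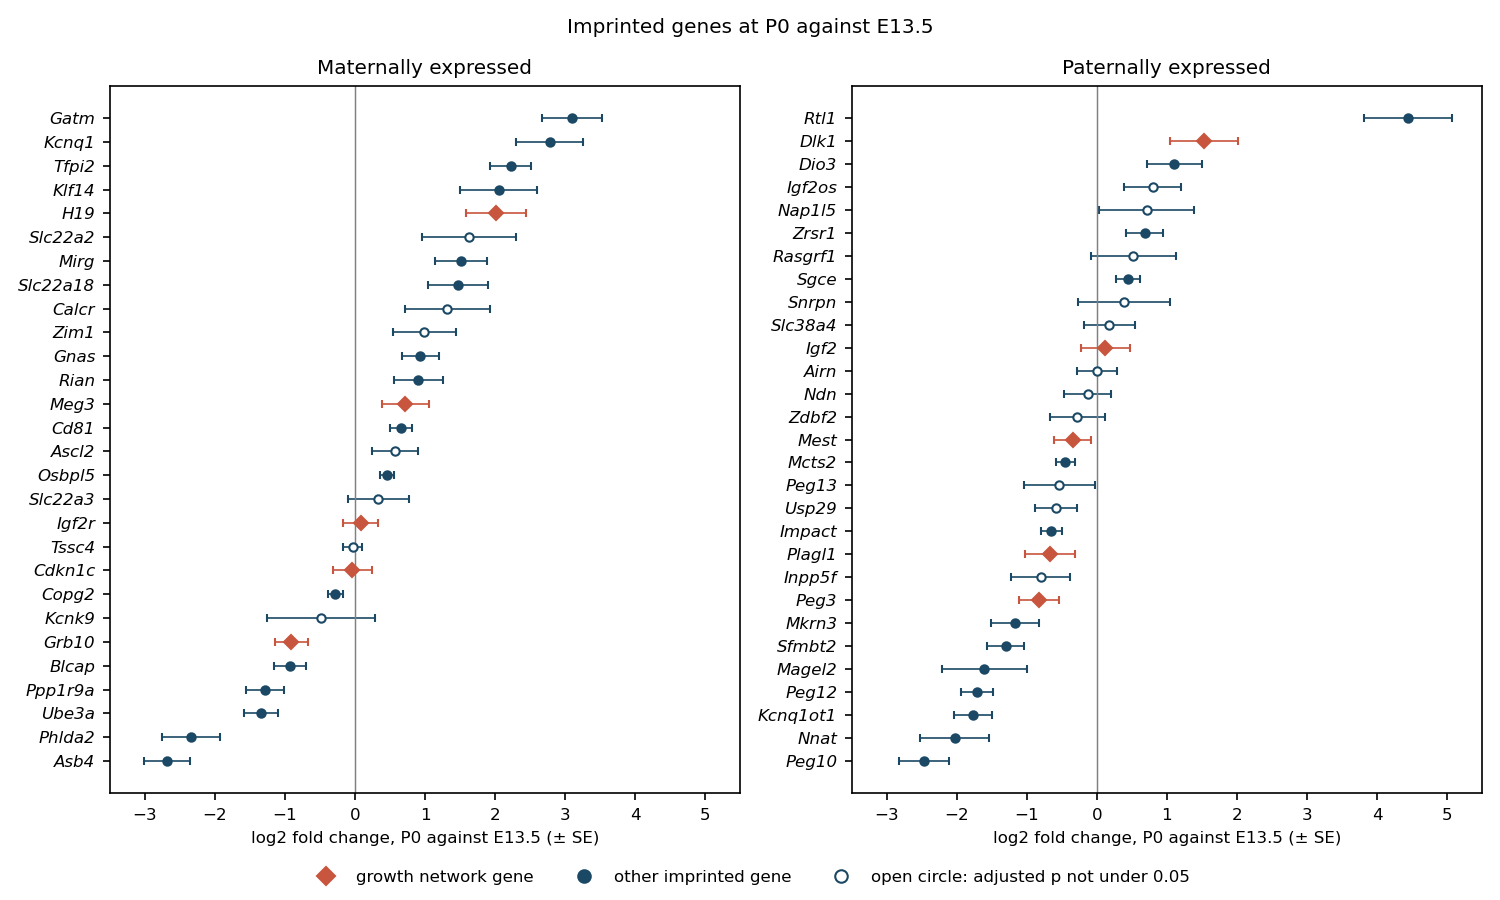
Log2 fold change of P0 against E13.5 with its SE for imprinted genes known as maternally (left) or paternally (right) expressed; diamonds are the 10 genes of the report, circles the others, and open circles did not pass an adjusted p of 0.05. Rtl1 at 4.44 lies farthest to the right and Asb4 at -2.68 farthest to the left.

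In the region of Dlk1 and Meg3, all 4 listed neighbours were higher at P0 than at E13.5 past the threshold, as were 29.8% of all tested genes. The 4 neighbours had different courses in between. Rtl1, a paternally expressed gene derived from a retrotransposon and known for its part in placenta and fetal muscle, went from 7.74, 7.87 and 6.34 CPM at E13.5 to 204, 224 and 48.2 CPM at P0. All P0 libraries lie above all E13.5 libraries, as the rule for named genes required. The log2 fold change was 4.44 (SE 0.63, edgeR adjusted p = 0.000102), and it was 4.12 to 4.90 with single libraries left out. At E15.5 Rtl1 was 1.75 (SE 0.56, edgeR adjusted p = 0.0377) above E14.5 on the log2 scale, a call that held in 2 of 6 fits without 1 library, with an adjusted p of 0.152 without E14.5 replicate 1. Rian and Mirg, non-coding RNAs of the maternal copy that carry snoRNAs and microRNAs, rose by 0.91 (edgeR adjusted p = 0.0427) and 1.52 (0.00405) from E13.5 to P0. Dio3, the deiodinase that inactivates thyroid hormone, rose by 1.11 (edgeR adjusted p = 0.0283), and its mean was highest at E15.5 (19.3 CPM, against 13.4 CPM at E16.5 and 14.9 CPM at P0). The P0 and E13.5 libraries of Rian overlap. Rian, Mirg and Dio3 were chosen after their values were seen, and their values with single libraries left out are not given. The muscle sums given above were also higher at P0 than at E13.5, and their part in these changes was not tested.

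**Figure D5:**
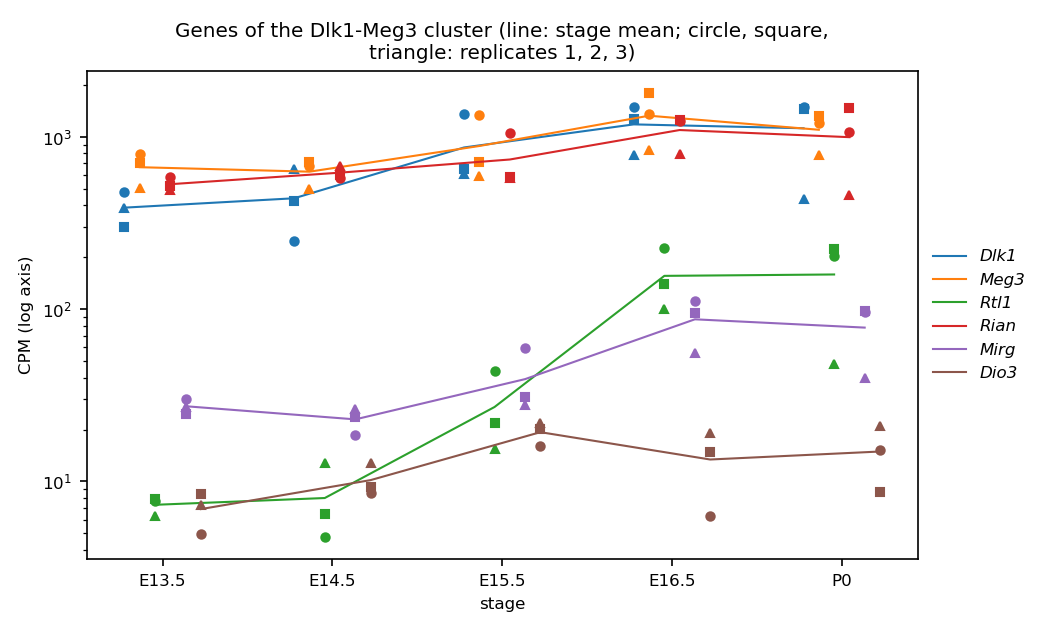
CPM on a log axis of Dlk1, Meg3, Rtl1, Rian, Mirg and Dio3 at the 5 stages; lines join stage means and circles, squares and triangles are replicates 1, 2 and 3. Rtl1 goes from a mean of 7.32 CPM at E13.5 to 159 CPM at P0, and P0 replicate 3 is the lowest P0 library for all of them but Dio3.

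In the region of H19 and Cdkn1c the neighbours went both ways from E13.5 to P0. Kcnq1, a potassium channel subunit, went from 1.09, 1.04 and 1.04 CPM to 7.63, 8.08 and 6.14 CPM, a rise of 2.78 on the log2 scale (edgeR adjusted p = 0.000398). Kcnq1ot1, the paternally expressed antisense RNA that runs through Kcnq1 and silences neighbours on its copy, went from 31.9, 24.1 and 25.6 CPM to 6.02, 6.22 and 11.8 CPM, and its log2 level fell by 1.77 (edgeR adjusted p = 0.000183). Counting used the strand, so the 2 genes were separated by it. Neither met the rule for named genes, and they were picked with their values known. Phlda2, a maternally expressed growth restraint of the placenta, fell by 2.35 on the log2 scale (SE 0.41, edgeR adjusted p = 0.000466) and was near 1 CPM at E13.5 (1.14 ± 0.464, SD, n = 3). Igf2os, the antisense partner of Igf2, had a mean of 25.0 CPM at E13.5 and 43.5 CPM at P0 and did not pass (edgeR adjusted p = 0.113).

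At other loci the largest falls from E13.5 to P0 were those of Asb4, a subunit of ubiquitin ligases, and Peg10, a second retrotransposon-derived gene, which are neighbours on chromosome 6. Asb4 went from 104, 62.2 and 66.0 CPM to 15.2, 11.6 and 9.36 CPM (log2 fold change -2.68, SE 0.33, edgeR adjusted p = 3.85e-05). Peg10 went from 598, 414 and 383 CPM to 96.0, 105 and 49.7 CPM (log2 fold change -2.48, SE 0.36, edgeR adjusted p = 0.000116). Rtl1 and Peg10, both retrotransposon-derived and paternally expressed, thus moved in opposite directions.

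For E15.5 against E14.5, 4 of the 49 other imprinted genes rose and 10 fell, 28.6% against 26.1% of all genes. Of these, 9 falls were at other loci. The named ones were Kcnk9, a brain potassium channel (log2 fold change -3.96, SE 0.86, edgeR adjusted p = 0.00702), Inpp5f, an inositol phosphatase (-2.36, SE 0.44, 0.00349), Nap1l5 (-2.23, SE 0.71, 0.0354) and Nnat, a proteolipid of developing brain (-1.74, SE 0.49, 0.0221). Nap1l5 and Nnat held in 2 of 6 fits without 1 library, with adjusted p up to 0.126 without E14.5 replicate 1 for Nap1l5 and up to 0.0867 without E15.5 replicate 3 for Nnat. The 7 neuronal markers summed to 2644 to 5675 CPM at E14.5 and 1074 to 2587 CPM at E15.5, and their part in these falls was not tested. Besides Rtl1, Tfpi2, a protease inhibitor, rose by 1.72 (SE 0.28, edgeR adjusted p = 0.00199), from 0.491 to 1.63 CPM on average. The count of 14 became 5 when E14.5 replicate 1 was left out and 7 when replicate 2 of that stage was. It became 6 and 7 when replicate 2 or replicate 3 of E15.5 was left out. The calls among all genes fell as well, from 5773 of 22151 to 2320 of 22824 and 3259 of 22854 without these E14.5 libraries. Without these E15.5 libraries they were 2975 of 22732 and 3010 of 22707.

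In the other 3 comparisons of neighbouring stages edgeR called 0 of the 49. For E14.5 against E13.5, 17 passed at an unadjusted p under 0.05, and DESeq2 called 6, with 1000 of 22151 genes in all. Of the 49, 22 had libraries without overlap, against 29.2% of all genes. Higher at E14.5 without overlap were 20 of the 49, against 15.5% of all genes. The neuronal markers were at 1060.3 to 3086 CPM at E13.5 and at 2644 to 5675 CPM at E14.5, and their part was not tested. For E16.5 against E15.5, 11 passed unadjusted and DESeq2 called 4, with 2094 of all genes. For P0 against E16.5, 5 passed unadjusted and DESeq2 called 1, with 663 of all genes.

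The partners of IGF2 were followed through 15 genes of ligands, receptors, binding proteins and mRNA-binding proteins. From E13.5 to P0, 3 rose and 4 fell, 46.7% against 56.6% of all genes. The binding proteins Igfbp6, which prefers IGF2, and Igfbp7 rose, and so did Igfbp3. Igfbp6 had 0.917, 0.930 and 1.19 CPM at E13.5 and 42.6, 21.5 and 20.2 CPM at P0, a log2 fold change of 4.80 (SE 0.51, edgeR adjusted p = 1.59e-05). Igfbp7 went from 7.98, 11.6 and 7.49 to 124, 108 and 110.5 CPM (3.66, SE 0.23, edgeR adjusted p = 1.50e-06). All 3 Igf2bp genes, whose proteins bind the mRNA of Igf2 and of other growth genes in the fetus, fell, and so did the receptor gene Igf1r. Igf2bp1 had a lower mean at each later stage and went from 139, 126 and 130.4 CPM to 12.4, 16.1 and 14.3 CPM (-3.21, SE 0.17, edgeR adjusted p = 1.13e-06). The ligand gene Igf1 had 119 CPM at E13.5 and 144 CPM at P0 on average, a log2 fold change of 0.28 (SE 0.31).

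At the single steps, 4 of the 15 rose and 2 fell for E15.5 against E14.5, 40.0% against 26.1% of all genes, among them Igfbp6 (2.30, SE 0.46, edgeR adjusted p = 0.00487). For E16.5 against E15.5, 2 of the 15 were called, 13.3% against 1.41% of all genes: Igfbp7 rose by 1.21 (SE 0.21, edgeR adjusted p = 0.0284) and Igf2bp1 fell by 0.93 on the log2 scale (SE 0.16, edgeR adjusted p = 0.0242). These 2 calls held in 2 of 6 and in 1 of 6 fits without 1 library, and both had an adjusted p of 0.133 without E15.5 replicate 2. For E14.5 against E13.5 and for P0 against E16.5 edgeR called 0 of the 15, with 4 and 2 passing at an unadjusted p under 0.05.

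Cdkn1a, which encodes p21, a kinase inhibitor of the same kind of function as Cdkn1c and not imprinted, differed from it. It had 22.2, 23.5 and 36.6 CPM at E13.5, 41.8, 37.2 and 58.7 CPM at E14.5 and 153, 148 and 171 CPM at E15.5, and 339, 437 and 175 CPM at P0. P0 against E13.5 gave a log2 fold change of 3.53 (SE 0.33, edgeR adjusted p = 7.41e-06) and E15.5 against E14.5 gave 1.77 (SE 0.31, edgeR adjusted p = 0.00248). The corresponding values of Cdkn1c were -0.04 (SE 0.27) and 0.47 (SE 0.27). The difference between the 2 genes was not tested.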

How the data were processed

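RNA of 15 wild-type palate libraries was analysed from 1 table of counts per gene that the authors deposited. Per the file headers, the authors made these counts with featureCounts 2.0.1, counting read pairs on the reverse strand of GENCODE M18, with no option to count fragments that overlap 2 genes or map to several places, and the input names mark trimmed reads and marked duplicates. The submitters' processing notes list mm10, cutadapt 3.4, FastQC 0.11.9, Bowtie2, HISAT2 2.2.1, SAMtools 1.12 and Subread 2.0.1. The deposited length column (another value, in bases) gave the levels per kilobase. Symbols of 54079 genes and the coding bases came from GENCODE M21 on GRCm38, in which the positions of the 10 genes are the same. Exon overlaps were computed from the exon positions in the deposited table.

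Genes were filtered with filterByExpr (minimum count 10), scaled by TMM and modelled by stage with edgeR 4.0.16 under R 4.3.3. Each of 5 contrasts had a quasi-likelihood test, adjusted by Benjamini-Hochberg over 22151 genes, with a threshold of 0.05. Log2 CPM used a prior count of 2. The labels call the 3 libraries of a stage separate pools and do not tie them to litters, so p-values measure the spread between these libraries. Other imprinted genes, IGF partners and kinase inhibitors were named as the 4 largest changes in each direction among those past the threshold whose higher stage had at least 1 CPM, and others are marked in the text. The 10 genes and all lists were chosen with earlier results of these data known. Alternatives were DESeq2 1.42.0, other scalings, other filters, the 6 libraries of a contrast alone, a replicate block, another prior count and single libraries left out. The procedure was tested on simulated data.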

Additional observations from a re-analysis of the deposited data

How the results depend on the processing

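For the 10 genes, the count of calls moved in E15.5 against E14.5 from 0 to 1 with upper-quartile scaling and from 0 to between 0 and 1 with single libraries left out, and in P0 against E13.5 from 4 to between 2 and 4. With that scaling all genes together shifted, their median in E15.5 against E14.5 going from 0.03 to 0.16 (log2). Among all genes the calls in E15.5 against E14.5 were 5431 with that scaling and 2320 to 6035 without single libraries, in place of 5773. In P0 against E13.5 they were 10668 to 13089 without single libraries, in place of 12535. For the other imprinted genes, E14.5 against E13.5 gave 1 call with the replicate block and 6 with DESeq2 in place of 0. Among all genes these fits called 135 and 1000, in place of 2. E15.5 against E14.5 gave 5 to 16 without single libraries, in place of 14. A fit without both E14.5 libraries 1 and 3, chosen after the data were seen, left a single library at E14.5, so no count is given for it. E16.5 against E15.5 gave 1 without a filter, 1 with a mean of at least 1 CPM, 4 with DESeq2 and 0 to 2 without single libraries, in place of 0. The calls among all genes were, in the same order, 218 of 37998, 332 of 16520, 2094 of 22151 and 0 to 969, in place of 312. P0 against E16.5 gave 1 with DESeq2 and 0 to 1 without single libraries, in place of 0. All-gene calls there were 663 and 10 to 216, in place of 78. P0 against E13.5 gave 25 to 32 without single libraries and 34 with DESeq2, in place of 31. The causes were not tested. Replicate numbers were not taken to pair the libraries: same-numbered libraries correlated between -0.30 and 0.55 in their deviations from the stage means, over 0.1 in 4 of 15 pairs. Those 4 were the pairs of replicate 3 at the 4 neighbouring steps (0.55, 0.21, 0.20 and 0.47). With the replicate block P0 against E13.5 kept 31 calls among the other imprinted genes and gave 5 in place of 4 among the 10 genes. Among all genes it gave 12595 calls in place of 12535.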
